A study of Homo sapiens with 15 samples.

Results

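The 10 genes followed here are known as androgen-induced genes outside the kallikrein family: NDRG1, SLC45A3, ABCC4, ELL2, EAF2, HERC3, MPHOSPH9, C1orf116, MED28 and ADAM7. They were taken by gene symbol as androgen targets. The rule itself used no measured value, but the genes were proposed with earlier results of these data known. All 10 had a row among the 17272 genes measured, and all 10 were among the 17046 genes tested, namely those with a mean of at least 0.5 over the 15 libraries. The cells were LNCaP, an androgen-responsive line derived from a human prostate cancer lymph node metastasis. They were kept for 2 days in medium with charcoal-stripped serum, which removes steroids, and then given 1 nM R1881, a synthetic androgen that is not metabolized, for 22 h. Of the libraries, 10 received R1881 with the solvent DMSO and 5 received R1881 with 2 µM enzalutamide, an antiandrogen drug. Polyadenylated RNA was sequenced. Every library contained R1881, so the comparison showed how each gene differed between androgen-exposed cells with and without enzalutamide. Induction from an androgen-free state was not analysed here.

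Androgens switch on genes through DNA elements built from repeats of a short hexamer, often in enhancers far from the genes they act on. In luminal prostate cells the androgen response reaches beyond secreted kallikreins into differentiation, membrane transport, lipid and amine metabolism, transcription elongation and protein turnover. The 10 genes cover several of these roles. NDRG1 is a cytoplasmic protein linked to differentiation and stress, SLC45A3 (prostein) and ABCC4 (MRP4) are membrane transporters, and ELL2 and EAF2 are partners in RNA polymerase II elongation. HERC3 is a HECT-type ubiquitin ligase, MPHOSPH9 a centriole protein that restrains cilium formation, C1orf116 the gene also known as SARG, for specifically androgen-regulated gene, MED28 a Mediator subunit, and ADAM7 a membrane protein of the disintegrin and metalloprotease family best known from the epididymis.

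The promoters of 4 of these genes are shown because the genes moved together under enzalutamide while their start-site sequence differed. RefSeq windows (GRCh38) from 250 bases before to 50 bases after the start were at hand for 6 members, 7 windows in all since HERC3 had 2. Only bases before the start and outside every annotated exon are printed, 5′ to 3′ on the gene's strand, and capitals mark CCAAT or its complement ATTGG, the box that binds the factor NF-Y.
SLC45A3 (chr1:205680510-205680759, minus strand): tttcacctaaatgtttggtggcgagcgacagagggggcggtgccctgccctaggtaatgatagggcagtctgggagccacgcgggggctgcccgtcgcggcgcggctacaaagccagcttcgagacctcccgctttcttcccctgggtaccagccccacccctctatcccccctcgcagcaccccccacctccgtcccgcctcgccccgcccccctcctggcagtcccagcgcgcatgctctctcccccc
C1orf116 (chr1:207032757-207033006, minus strand): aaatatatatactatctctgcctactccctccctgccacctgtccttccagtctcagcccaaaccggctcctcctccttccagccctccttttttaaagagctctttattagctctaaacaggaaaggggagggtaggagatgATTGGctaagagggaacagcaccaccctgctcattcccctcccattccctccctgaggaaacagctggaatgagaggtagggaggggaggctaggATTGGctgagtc
EAF2 (chr3:121835080-121835182, plus strand): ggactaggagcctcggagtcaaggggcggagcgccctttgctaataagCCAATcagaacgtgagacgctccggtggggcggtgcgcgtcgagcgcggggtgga
MPHOSPH9 (chr12:123233239-123233384, minus strand): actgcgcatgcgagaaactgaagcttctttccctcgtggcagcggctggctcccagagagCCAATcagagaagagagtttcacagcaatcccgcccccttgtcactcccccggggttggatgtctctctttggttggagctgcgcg

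The hexamer of the androgen response element, searched as TGTTCT or AGAACA so that both strands were covered, was in 0 of the 7 member windows. It was in 14.8% of all 35116 windows of the same length, and in 4 of 14 windows of the other androgen target genes described below. Both orientations separated by 3 bases, the full palindrome, were in 1 window of the whole set and in none of the members'. CCAAT, a motif picked after the sequences had been seen, was in 4 of the 7 member windows and in 34.6% of all windows. Of the 7 windows, 6 were rich in CpG, with 26 to 47 CpG dinucleotides and 64.3% to 79.7% GC. The window of C1orf116 had 1 CpG and 53% GC, beside a median of 14 CpG over all windows. These matches describe letters near the start only, and the RefSeq start used for MPHOSPH9 lies inside the longer GENCODE gene, so that its stretch is intronic in an annotated transcript that starts further upstream.

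With enzalutamide 9 of the 10 genes fell and MED28 rose. At an adjusted p under 0.05 (limma on log2 values with Benjamini-Hochberg adjustment over all genes tested), 32.7% of all genes were lower and 29.8% were higher, so a call by itself is a weak criterion here. A change of at least 2-fold was rarer: 4.19% of all genes were lower by that much, against 9 of the 10 members. In 20.1% of all genes every enzalutamide library lay below every R1881 library, and in 17.1% every one lay above; 9 members were of the first kind and MED28 was of the second. The median log2 fold change was -2.28 over the members and -0.01 over all genes tested. With library totals set equal, the calls over all genes became 4288 lower and 6629 higher in place of 5577 and 5083, and the members stayed at 9 lower and 1 higher. A two-sided exact permutation test, which regrouped the 15 libraries in every possible way, gave p = 0.000333 for each member, the smallest this design allows. In bulk RNA, fewer cells of a type and less RNA per cell cannot be told apart.

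**Figure D1:**
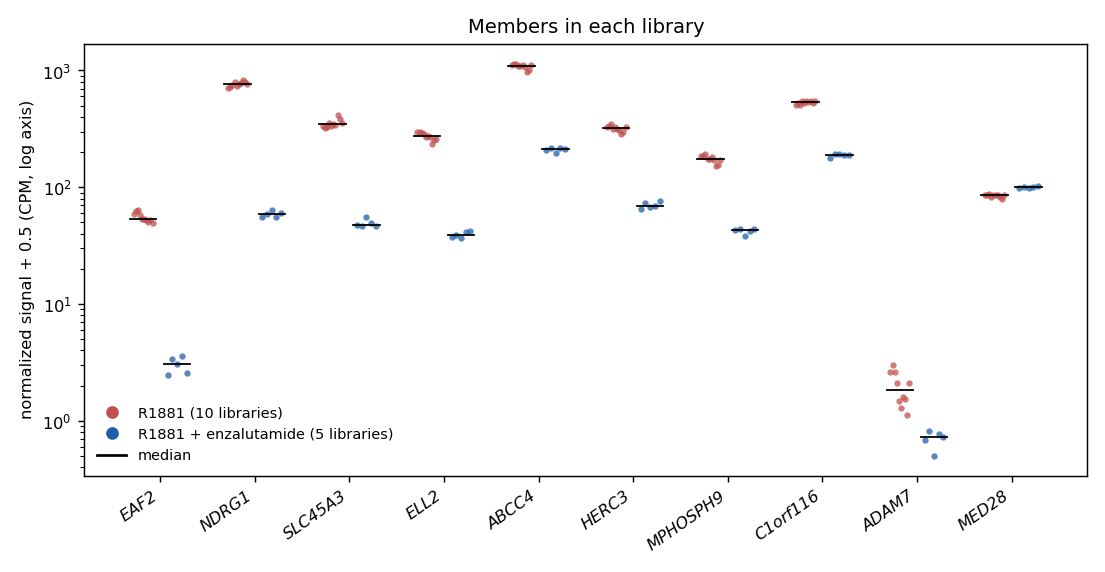
Normalized signal plus 0.5 (CPM, log axis) of the 10 members in each library, with R1881 in red (10 libraries, in the order of their library numbers), R1881 + enzalutamide in blue (5 libraries) and a black bar at each median. The groups are apart for all 10 genes, with MED28 the only one higher in the blue libraries.

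NDRG1 (chromosome 8, minus strand, GRCh38 133237175 to 133302022, 16 exons in its canonical transcript) has long served as a marker of androgen response and of differentiation. The normalized signal, in CPM (counts per 1000000 reads) as rescaled by the authors, was 711 at the lowest, 762 at the median and 835 at the highest in the 10 R1881 libraries. In enzalutamide replicates 1 to 5 it was 58.5, 64, 55.1, 60.0 and 54.7. The highest enzalutamide library was thus far below the lowest R1881 library. The median fell by 92.3%, and the log2 fold change was -3.70 (SE 0.041, adjusted p = 3.76e-24, limma), the 33rd lowest of all genes tested.

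The 2 transporters fell less steeply than NDRG1. SLC45A3 (chromosome 1, minus strand, 205657851 to 205680509, 5 exons) encodes prostein, a membrane protein largely restricted to prostate epithelium, and its promoter is a known fusion partner of ETS genes in prostate cancer. Its signal ran from 322 through a median of 344 to 418 with R1881, and was 45.7, 55.5, 46.7, 46.1 and 49.0 in enzalutamide replicates 1 to 5. The groups did not overlap, and replicate 2 was the highest of the 5. The log2 fold change of SLC45A3 was -2.84 (SE 0.056, adjusted p = 2.67e-20, limma), a fall of the median by 86.4%.

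ABCC4 (chromosome 13, minus strand, 95019835 to 95301475, 31 exons) exports cyclic nucleotides, prostanoids and steroid conjugates. Its signal with R1881 was 979, 1101 and 1144 in the lowest, median and highest library. With enzalutamide the 5 libraries read 217, 198, 209, 211 and 215. The 5 libraries were close together and far below the R1881 range, and the median had fallen by 80.8%. The log2 fold change was -2.37 (SE 0.037, adjusted p = 6.3e-22, limma).

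The elongation pair held the steepest fall of the set. EAF2 (chromosome 3, plus strand, 121835183 to 121886526, 6 exons), also called U19, binds ELL proteins, stimulates their elongation activity and restrains growth in the prostate. Its signal was 49.2 to 63.2 with R1881 (median 53.2) and 2.89, 2.56, 1.96, 2.07 and 3.10 in enzalutamide replicates 1 to 5, or 43 to 79 reads a library. The log2 fold change of EAF2 was -4.22 (SE 0.084, adjusted p = 3.21e-20, limma), the 17th lowest of all genes tested, and 95.2% of the median was lost.

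ELL2 (chromosome 5, minus strand, 95885098 to 95961851, 12 exons) is the elongation factor that EAF2 binds and a subunit of the super elongation complex. Its R1881 libraries ran from 236 to 297 with a median of 272. The enzalutamide libraries held 38.8, 36.1, 37.1, 41.9 and 41.2, all well below them. Its log2 fold change of -2.79 (SE 0.051, adjusted p = 9.48e-21, limma) had a 95% interval that overlapped that of SLC45A3. The change of ELL2 was smaller in size than that of EAF2.

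HERC3 (chromosome 4, plus strand, 26 exons) belongs to the HERC ubiquitin ligases, which join an RCC1-like domain to a HECT domain. Reads of HERC3 carry an annotation limit, because GENCODE holds 2 overlapping genes of that symbol, at 88592434 to 88708541 and 88523810 to 88708450, while the data held 1 row. The signal of HERC3 was 283, 322 and 349 at the lowest, median and highest with R1881, and 73.1, 67.7, 64.1, 75.6 and 68.7 with enzalutamide. No library crossed between the groups, and the log2 fold change was -2.18 (SE 0.046, adjusted p = 9.13e-20, limma).

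MPHOSPH9 (chromosome 12, minus strand, 123152320 to 123244014, 24 exons) sits at the distal end of centrioles with CP110 and CEP97, where it holds back cilium assembly. It read 152 to 191 with R1881 (median 175) and 43.8, 37.8, 42.2, 43.2 and 41.7 with enzalutamide. The fall took 75.9% of the median, and the log2 fold change of -2.04 (SE 0.051, adjusted p = 1.74e-18, limma) had a 95% interval that overlapped that of HERC3.

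C1orf116 (chromosome 1, minus strand, 207018522 to 207032756, 4 exons) was named for its androgen regulation, and the function of its protein is little known. Its libraries were even, with 507, 531 and 552 as lowest, median and highest under R1881 and 193, 192, 179, 187 and 188 under enzalutamide. Enzalutamide left 35.4% of the median. The log2 fold change of -1.50 (SE 0.029, adjusted p = 2.51e-20, limma) was the smallest fall among the 8 members that had more than a trace of signal and fell.

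ADAM7 (chromosome 8, plus strand, 24440930 to 24526970, 22 exons) lacks the catalytic motif of the active ADAM proteases. It was close to the limit of detection in these cells. The R1881 libraries held 10 to 53 reads each, 291 in all, for a signal of 0.629 to 2.50 with a median of 1.35. In enzalutamide replicates 1 to 5 the signal was 0.326, 0, 0.182, 0.225 and 0.274, from 23 reads in all. Replicate 2 held 0 reads, which allows a signal of up to 0.140 (3 reads, counting error only). Its mean was 1.45 with R1881 and 0.201 with enzalutamide, so it reached the mean of 0.5 needed for testing only through the R1881 group. The counts of members given above include it. The groups did not overlap, and the log2 fold change was -1.42 (SE 0.20, adjusted p = 3.67e-06, limma) on the log2(value + 0.5) scale. That scale shrinks the change of so low a gene: the value was -2.40 with a pseudocount of 0.1 and -0.99 with a pseudocount of 1.

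MED28 (chromosome 4, plus strand, 17614641 to 17634105, 4 exons), a subunit of the Mediator head that links activators to RNA polymerase II, went the other way. It read 78.9, 85.0 and 87.7 at the lowest, median and highest with R1881 and 100, 97.2, 97.2, 103 and 99.5 in enzalutamide replicates 1 to 5. The groups were separate but close, and the median was 17.1% higher. The log2 fold change of 0.24 (SE 0.031, adjusted p = 1.09e-06, limma) was positive under all 28 alternative settings, from 0.23 to 0.33. It lay inside the middle 90% of all genes tested (-0.89 to 0.82), and ranked 4138th from the highest. The direction of MED28 was thus opposite to that of the other 9 members.

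Ordered by fold change, EAF2 came first, then NDRG1, SLC45A3 with ELL2, ABCC4, HERC3 with MPHOSPH9, C1orf116 with ADAM7, and MED28 last. Genes joined by "with" had overlapping 95% intervals, and the other neighbours in the order did not. These intervals were taken gene by gene. The differences between neighbours in the order were not tested within libraries, so an overlap does not show equal changes. The place of ADAM7 depends on the pseudocount and the test: its fold change was -2.40 with 0.1, -2.74 in edgeR and -2.82 in DESeq2, and its median fell by 83.4%. The summed signal of the 10 genes dropped from 3555 to 3715 with R1881 to between 733 and 773 with enzalutamide.

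**Figure D2:**
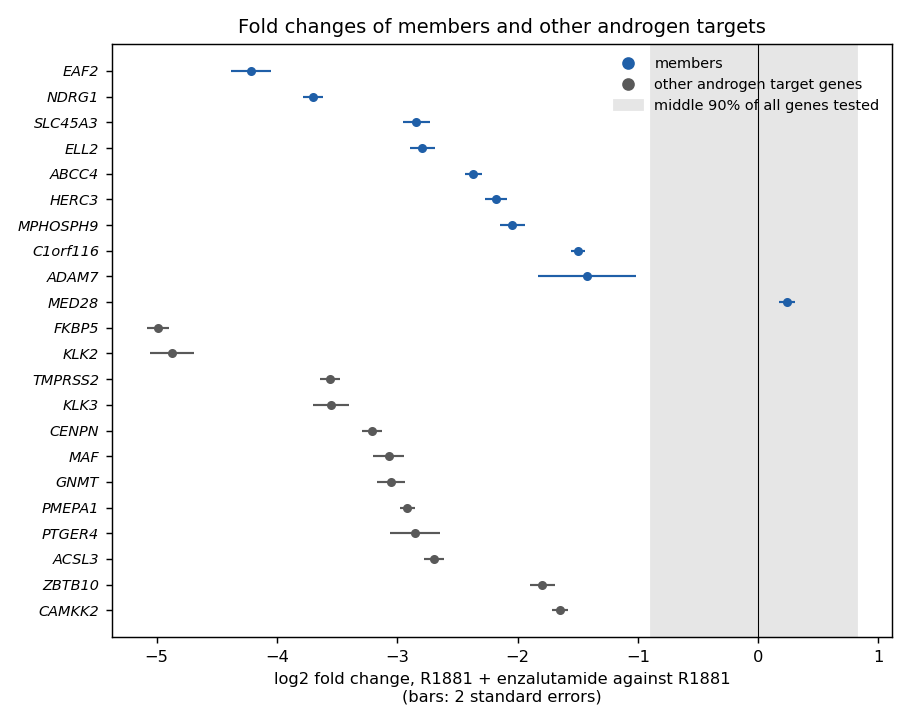
Log2 fold change (R1881 + enzalutamide against R1881) of the 10 members in blue and of 12 other androgen target genes in grey, with bars of 2 standard errors and a shaded band for the middle 90% of all genes tested. The 9 members that fell lie left of the band, within the span of the grey genes from -4.99 to -1.65 except C1orf116 and ADAM7, and MED28 lies inside the band.

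A list of 12 further androgen targets gave the scale for these falls: KLK2, KLK3, TMPRSS2, FKBP5, PMEPA1, ACSL3, ZBTB10, CENPN, GNMT, PTGER4, CAMKK2 and MAF. All 12 were lower, by 2-fold or more in each case, with a median of -3.06, beside 4.19% of all genes lower by that much. The list held known androgen targets and was chosen with earlier results of these data known, so its count is no independent test. FKBP5, a chaperone of steroid receptors, had the lowest log2 fold change at -4.99 (1502 ± 87.4 to 46.8 ± 3.11, SD, n = 10 and 5), and CAMKK2, a calcium-dependent kinase, the highest at -1.65. KLK3, which encodes prostate-specific antigen, stood at -3.55, above EAF2 at -4.22 and close to NDRG1 at -3.70.

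Levels between genes can be compared only per length. With R1881, the signal per kb of annotated exon was 126 ± 6.16 for ABCC4 (SD, n = 10), 96.8 ± 2.91 for C1orf116 and 93.7 ± 7.76 for SLC45A3, and the last of these could not be placed below C1orf116 beyond the spread of the libraries. NDRG1 followed with 63.8 ± 3.08, HERC3 with 45.0 ± 2.73, ELL2 with 38.4 ± 2.80, EAF2 with 31.1 ± 2.77, MPHOSPH9 with 16.9 ± 1.23, MED28 with 7.66 ± 0.232 and ADAM7 with 0.323 ± 0.142. HERC3 and ELL2, as well as ELL2 and EAF2, overlapped in their libraries. The place of NDRG1 rests on the length used: per kb of its canonical transcript it was first, at 253 ± 12.2. ELL2 and EAF2 also change places on that length, at 46.9 ± 3.42 and 55.2 ± 4.91.

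With enzalutamide the order per kb of exon changed. C1orf116 led with 34.1 ± 1.02 (SD, n = 5), ABCC4 had 24.3 ± 0.854 and SLC45A3 13.0 ± 1.1. HERC3 had 9.85 ± 0.641 and MED28, next to last with R1881, now overlapped it at 9.06 ± 0.210, above ELL2 at 5.49 ± 0.352, NDRG1 at 4.87 ± 0.317 and MPHOSPH9 at 4.05 ± 0.229. Per kb of canonical transcript ABCC4 came before C1orf116, at 35.8 ± 1.26. On that length MED28, at 9.15 ± 0.212, stood well below HERC3 at 14.1 ± 0.915, so their overlap rests on the length used. ELL2 and NDRG1 overlapped, and per kb of canonical transcript NDRG1 was again higher, at 19.3 ± 1.26. EAF2 had dropped to 1.42 ± 0.281 and ADAM7 to 0.0449 ± 0.0278.

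Each of 6 members fell relative to a gene of its own family. The comparison was made with a paralog within each library, as a log2 ratio of the 2 signals that does not depend on library scaling apart from the pseudocount. EAF1, the other ELL-binding factor, was at 96.2 ± 4.35 with R1881 and 94.9 ± 5.33 with enzalutamide (SD, n = 10 and 5), so the EAF2 to EAF1 log2 ratio went from -0.80 ± 0.125 to -5.00 ± 0.237. ELL, the founding member of the ELL family, read 13.7 ± 2.2 and 15 ± 2.9, and the ratio of ELL2 to ELL dropped by 2.91 on the log2 scale. For NDRG1 against NDRG3 the ratio changed sign, from 1.90 ± 0.113 to -2.02 ± 0.119, with no library of either group near 0.

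The ratio of SLC45A3 to SLC45A4 dropped by 2.86. That of ABCC4 to ABCC5 dropped by 3.07 and that of HERC3 to HERC4 dropped by 1.86. HERC4 itself fell, at -0.33. In each of the 6 pairs every enzalutamide library was below every R1881 library, with p = 0.000333 before and after adjustment over the 6 pairs (two-sided exact permutation test). The paralogs changed far less than the members, from -0.33 for HERC4 to 0.70 for ABCC5. These ratios and their p-values thus largely repeat the falls of the members. ABCC4 was set against ABCC5, which rose, while ABCC1 of the same family fell (-1.61). The pair of ADAM7 with ADAM28 was not analysed here.

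**Figure D3:**
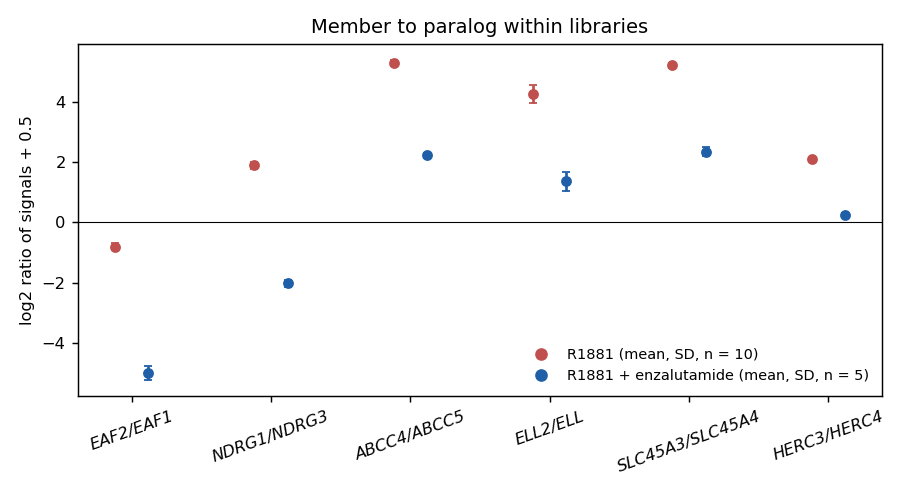
Log2 ratio of each member to its paralog within libraries (signals + 0.5), as mean and SD of 10 R1881 libraries in red and 5 R1881 + enzalutamide libraries in blue. All 6 blue points are lower, by 1.86 for HERC3 to HERC4 up to 4.19 for EAF2 to EAF1, and the NDRG1 to NDRG3 ratio crosses 0.

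Of the elongation complexes that ELL2 and EAF2 enter, 12 other genes were tested. The 2 lower ones were AFF4 (-0.44), the scaffold of the super elongation complex, and CDK9 (-0.11, adjusted p = 0.045), the kinase of P-TEFb. Another 4 were higher: AFF1 (0.33), MLLT3 (0.34), the cyclin CCNT2 (0.20) and ZC3H8 (0.22), a subunit of the little elongation complex. The other 6 (ELL, EAF1, CCNT1, MLLT1, ICE1 and ICE2) did not pass, and the median of the 12 was 0.08. Over all genes tested the shares were 32.7% lower and 29.8% higher. None of the 12 changed by 2-fold, unlike ELL2 and EAF2. The call of CDK9 was lost when the values were rescaled and when any of 5 libraries was left out (R1881 replicates 1 and 9, enzalutamide replicates 1, 4 and 5), which left 1 lower gene.

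Around MED28, 32 other Mediator genes were tested, of which 10 were lower, 7 higher and 15 neither, with a median of -0.05. Neither count was above the share over all genes tested, 32.7% lower and 29.8% higher. Their range ran from MED12L at -0.46 to CDK8, the kinase of the module that docks on Mediator, at 1.82. CDK8 was the only one past 2-fold, with 31.8 ± 2.49 in R1881 libraries and 113 ± 4.31 in enzalutamide libraries (SD, n = 10 and 5). With library totals set equal, 6 Mediator genes in place of 10 were lower.

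A further 6 lists held relatives or partners of the members, 28 genes in all, of which 10 were lower and 10 higher. Both counts were near the shares over all genes tested, 32.7% lower and 29.8% higher. In the ABCC family, ABCC1 (MRP1), a drug and glutathione-conjugate exporter, fell with ABCC4, from 286 ± 11.7 to 93.3 ± 5.19 (log2 fold change -1.61), while ABCC5 (0.70), ABCC6 (0.64) and ABCC8 (0.24) rose and 2 did not pass. The call of ABCC8 (adjusted p = 0.0303, limma) was lost without R1881 replicate 4, without enzalutamide replicate 3, 4 or 5, and against R1881 libraries 71 to 75 alone. In the HERC family, HERC5, the ligase for the ubiquitin-like protein ISG15, fell by 1.58 on the log2 scale from a low level (6.95 ± 0.656 to 2.00 ± 0.229). HERC6 (-0.61) and HERC4 (-0.33) were lower too, HERC1 was higher (0.39) and HERC2 did not pass.

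NDRG2 (0.11) and NDRG3 (0.22) both rose. The call of NDRG2 was lost against R1881 libraries 51 to 55 alone. It was also lost without R1881 replicates 5 and 6 and enzalutamide replicate 2, left out together for a GC pattern described below. SLC45A2 was lower (-0.52), and SLC45A1 and SLC45A4 did not pass. Of 7 ADAM genes, 3 were lower and 2 higher, from ADAM9 at -0.69 to ADAM22 at 1.00. Of 5 partners of MPHOSPH9 at the centriole, 2 were lower and 2 higher. The kinesin KIF24 was lower by 2-fold (-1.07) and CCP110, which encodes CP110, by less (-0.23). CEP290 (0.44) and TTBK2 (0.41), which promote ciliogenesis, were higher, and CEP97 did not pass.

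The genes on either side of the members were also read, as the nearest protein-coding gene with a row on each side, 1 for ADAM7. Of 19 flanking genes 18 were tested, of which 12 were lower, 2 higher and 4 neither, with a median of -0.46. Over all genes tested 32.7% were lower and 29.8% higher. Of the 18 genes, 4 were lower by 2-fold or more, beside 4.19% of all genes. The clearest was SLC15A2, the peptide transporter PEPT2, which starts 7.88 kb beyond EAF2 on the same strand. It read 33.3 ± 3.10 with R1881 and 1.55 ± 0.209 with enzalutamide (SD, n = 10 and 5), a log2 fold change of -4.05 (adjusted p = 8.85e-21, limma) and the 22nd lowest of all genes tested, next to -4.22 for EAF2.

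On the other side of EAF2, IQCB1 is read from the opposite strand and starts 0.104 kb away, so that the EAF2 sequence printed above is the whole interval between the 2 genes. IQCB1, named here after its values were seen, was at 53.4 ± 4.51 and 31.1 ± 1.17, a log2 fold change of -0.77 (adjusted p = 8.46e-11, limma). The 2 genes that start at the ends of this short interval thus both fell, EAF2 by far more.

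PFKFB2, an enzyme that sets fructose 2,6-bisphosphate and so glycolytic flux, starts 1.61 kb from C1orf116 on the opposite strand, and its log2 fold change of -1.46 stood next to -1.50 for C1orf116. ELK4, an ETS factor 25.8 kb beyond SLC45A3 on the same strand, went from 312 ± 23.6 to 117 ± 8.41 (-1.41). TG, the gene for thyroglobulin, lies 102 kb from NDRG1 and fell from 5.75 ± 0.717 to 0.178 ± 0.0481 (-3.20).

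The 2 flanking genes that rose, named after their values were seen, were ST3GAL1 (0.94), on the other side of NDRG1, and NEFL (0.77), beside ADAM7. MED28 had no neighbour with a change of 2-fold. Another 3 genes overlapped a member on the opposite strand: NAP1L5 in HERC3 (0.46), the gene now named MTRFR with MPHOSPH9 (-0.80) and FAM184B with MED28 (0.98). The library kit kept the strand, but the sources used here do not give the strand setting of the counting, so reads in these overlaps may be shared.

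**Figure D4:**
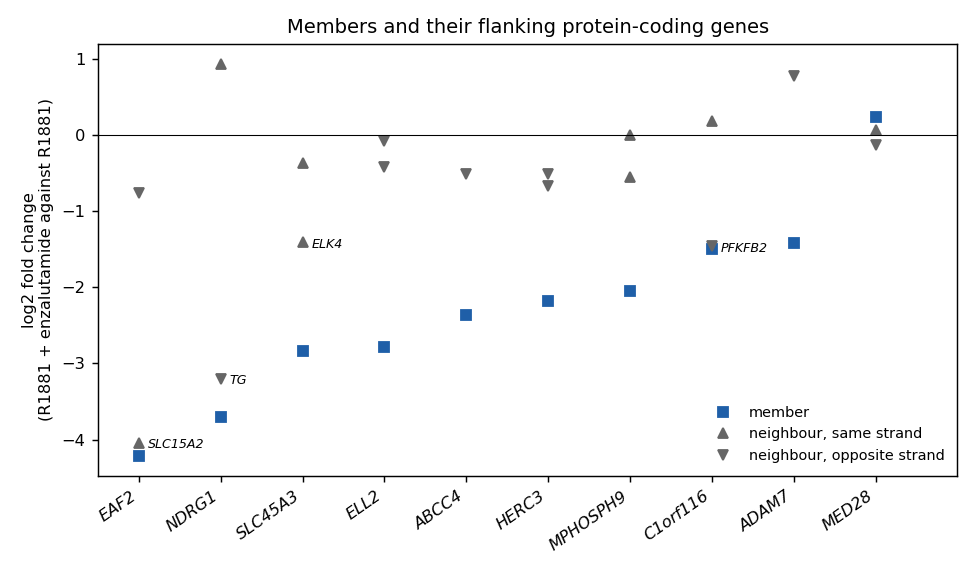
Log2 fold change (R1881 + enzalutamide against R1881) of each member, as a blue square, and of its tested flanking protein-coding genes, as grey triangles pointing up for the same strand and down for the opposite strand. SLC15A2 and PFKFB2 lie at nearly the same height as EAF2 and C1orf116, whereas ST3GAL1 and NEFL lie above 0.

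The members were also compared within the R1881 group. The labels number these libraries 51 to 55 and 71 to 75, and the enzalutamide libraries 81 to 85, without saying what the numbers mark. Since all enzalutamide libraries are of the series 81 to 85, that series and the treatment cannot be told apart. Between the 2 R1881 series only EAF2 did not overlap (53.2 to 63.2 against 49.2 to 53.1), 1 of 10 members beside 6.67% of all genes tested. The median of series 71 to 75 was 0.884 times that of series 51 to 55 for ELL2 and 1.06 times for NDRG1. Against either series alone, each member kept its direction and its call, with EAF2 at -4.31 and -4.12 and NDRG1 at -3.66 and -3.74.

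R1881 replicate 6 was the highest of the 10 libraries for NDRG1 and SLC45A3 and the lowest for ABCC4, ELL2, HERC3 and MPHOSPH9. The 3 members whose canonical transcript has over 50% GC (C1orf116, NDRG1 and SLC45A3, 51.5% to 59%) were all above their R1881 mean in that library, by 0.04 to 0.26 on the log2 scale. The 7 members at 38.9% to 44.1% GC were all below theirs, by 0.05 to 0.27. Replicate 5 of R1881 had 2 of the 3 above and all 7 below. Enzalutamide replicate 2 had all 3 above and 6 of the 7 below, EAF2 being the exception. R1881 replicates 7, 9 and 10 showed the opposite split, with all 3 below their mean and all 7 above. The part of GC content in the spread was not tested. Without R1881 replicates 5 and 6 and enzalutamide replicate 2, 9 members were lower and 1 higher as before. EAF2 was then at -4.25, NDRG1 at -3.71 and MED28 at 0.23. That setting kept R1881 replicates 7, 9 and 10.

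**Figure D5:**
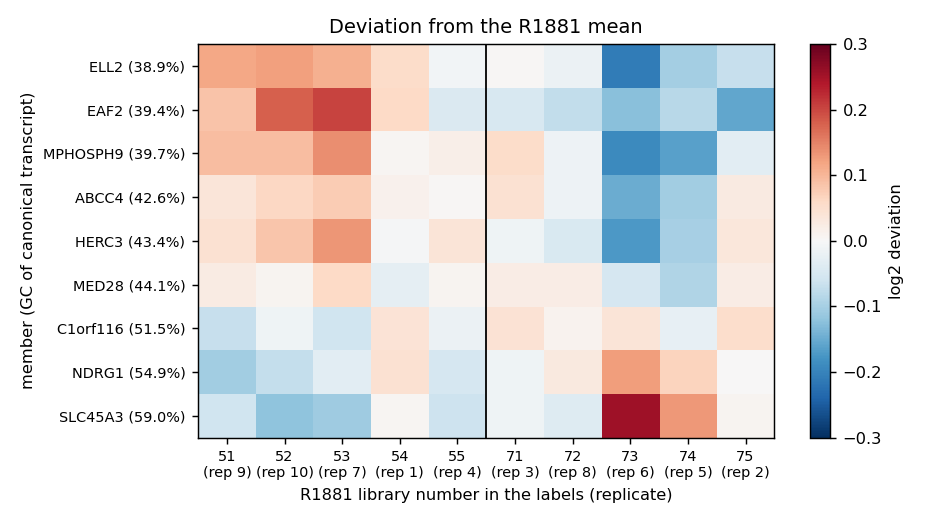
Log2 deviation of each member from its R1881 mean in the 10 R1881 libraries, with members ordered by the GC content of their canonical transcript, a line between library numbers 51 to 55 and 71 to 75, and ADAM7 left out for its few reads. In library 73 (replicate 6) the 6 members at or under 44.1% GC are all below their mean and the 3 GC-richer ones above it. Libraries 51, 52 and 53 show the opposite split.

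Other features of the cells moved with the treatment. All 10 proliferation genes were lower, beside 32.7% of all genes tested. Their median was -0.89, with summed signals of 909 to 1121 with R1881 against 501 to 580 with enzalutamide. The 6 luminal markers read here were all present, and their sum went from between 5061 and 6372 to between 2531 and 2585, but they did not move as one: KLK2, KLK3, KRT8 (-2.18) and KRT18 (-2.05) fell, while FOLH1 (1.04) and HOXB13 (0.16) rose. Of the basal markers KRT14 was the only one with a row, at 1.02 and 0.10, and of 4 markers of immune, endothelial and stromal cells only COL1A1 had one, at 6.03 and 9.96. The part of these shifts in the members' changes was not tested. Recovered reads per library were 15830745 to 24316740 with R1881 and 21188661 to 25416052 with enzalutamide.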

How the data were processed

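The deposited values are a signal per gene: CPM (counts per 1000000 reads) on a library size that the authors rescaled by a rule not stated in the sources used here. Columns summed to 1053406 to 1078567 with R1881 and to 985580 to 1008992 with enzalutamide, so the sums of the groups did not overlap. Once divided by the value of 1 read, 100% of values were whole reads (tolerance 0.01 reads). The submitters' processing notes name bcl2fastq 2.17, STAR, featureCounts and GRCh38. Gene positions, exons and strand came from GENCODE 44, and promoter windows from RefSeq. Groups follow the labels (10 R1881, 5 R1881 + enzalutamide), whereas the methods give these group sizes the other way round. The methods call the libraries biological replicates, and p-values measure the spread between these libraries.

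From the values, log2(value + 0.5) of 17046 genes with a mean of at least 0.5 was fitted with limma 3.58.1 in R 4.3.3, treatment being the only term, with Benjamini-Hochberg adjustment. edgeR 4.0.16 and DESeq2 1.42.0 on the recovered reads, other scalings, pseudocounts and filters, each R1881 series alone, a replicate block and leaving out each library were alternatives. The limma and edgeR fits and the permutation test were tested on simulated data. The DESeq2 fit, the other scalings and the replicate block were not. Members and lists were chosen with earlier results of these data known. Named genes were all members, all genes of the androgen target, elongation, NDRG, SLC45, ABCC, HERC and paralog lists, the extremes and 2-fold changes of the Mediator and ADAM lists, neighbours with a 2-fold change, and cell markers. The centriole partners were named outside this rule, after their values were seen. Library intervals and floors cover counting error only. Some genes of the planned lists are not reported here.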

Additional observations from a re-analysis of the deposited data

How the results depend on the processing

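All 279 alternative values of the members' log2 fold changes kept the direction and the call of the limma fit, and so did all 114 of the member to paralog differences. ADAM7 had no value at a mean filter of 5, and its fold change ran from -2.82 (DESeq2) to -0.99. A further requirement of a 2-fold change left 0 members higher, 0 elongation genes lower and 0 higher, 0 Mediator genes lower and 1 higher, 2 proliferation genes lower, 3 relatives and partners lower and 1 higher, 4 flanking genes lower and 0 higher, and 714 genes lower and 556 higher over all genes. Under TMM factors, median-ratio factors, library totals of 1000000, edgeR, DESeq2 and R1881 libraries 71 to 75 alone, 1 elongation gene was lower in place of 2. Leaving out 1 library gave 1 to 2 (1 without R1881 replicate 1 or 9 or enzalutamide replicate 1, 4 or 5). Library totals of 1000000 left 6 Mediator genes lower, and a mean filter of 5 left 1 flanking gene higher. Replicate numbers did not pair the libraries: the correlations of same-numbered deviations were -0.068 to 0.074. Some differently numbered libraries were more strongly correlated across the groups. R1881 replicate 6 reached 0.67 with enzalutamide replicate 2 and -0.57 with enzalutamide replicate 1. With a replicate block 9 members were lower and 1 higher, 1 elongation gene was lower, 1 NDRG gene higher in place of 2, and 2 ABCC genes higher in place of 3. Leaving out R1881 replicates 5 and 6 with enzalutamide replicate 2 was chosen after seeing the data. The few reads of ADAM7 limit its value most. The protein comparison planned for the paralogs was not run.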
